A study of Mus musculus with 28 samples.

Results

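Tumour and adjacent liver were compared in the 3 pairs of the series whose titles carry the letter M: 3 libraries titled Tu_M, from hepatocellular carcinoma tissue, and 3 titled Pe_M, from peritumour tissue. They are 6 of the 28 RNA-sequencing libraries and 3 of the 14 pairs; the remaining 22 libraries form 11 pairs with the letter F. Members were chosen by title and by the sample code that a tumour library shares with its peritumour library, and no measured value entered that choice. Both groups carry the same genotype, c-Myc/Alb-cre, so the peritumour tissue is transgenic liver and not normal liver. Alb-cre is a Cre recombinase under the albumin promoter, which directs the modification to hepatocytes and their precursors. The labels give no age, treatment or time, do not say what F and M stand for, and do not state that a code is an animal. It was taken as one, and p-values measure the spread between these samples, which may be partly technical.

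Myc is a transcription factor that binds DNA as a dimer with Max and drives ribosome production, nucleotide synthesis and the cell cycle. In the liver, hepatocytes divide their tasks along the lobule: those around the central vein, kept in that state by Wnt signals, carry most drug-metabolizing cytochrome P450 enzymes and glutamine synthetase, while those around the portal vein make urea and glucose. Tumours that arise from hepatocytes often lose part of this programme, and their stroma and immune cells can differ from those of the surrounding liver.

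Library totals in the 6 M libraries ran from 14884138 to 16607183 estimated counts, and the 10 most abundant genes held 7.45% to 9.74% of a total. Between 15203 and 15715 genes had counts. The Y-linked genes Ddx3y, Eif2s3y, Kdm5d and Uty measured 11.7 to 48.3 counts per 1000000 (CPM) in every M library and at most 0.186 CPM in the 22 F libraries. Markers of hepatocytes were abundant in both tissues, with all 20 members of the hepatocyte identity list tested and a summed level of 41807 to 60680 CPM in Pe_M and 37482 to 51695 CPM in Tu_M. Pancreatic acinar markers summed to at most 7.69 CPM in any of the 6 libraries, and Prss2, Cpa1 and Reg1 had no counts in all of them.

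No autosomal gene passed the test. The fit used edgeR's quasi-likelihood test with the animal as a block and a tumour effect for each letter. P-values were adjusted by the Benjamini-Hochberg method across every gene tested, and the lowest adjusted p of an autosomal gene was 0.232 against a threshold of 0.05. Of 13641 autosomal genes tested, 0 (0.0%) passed, 515 (3.78%) were higher and 811 (5.95%) lower in tumour at an unadjusted p under 0.05, together 1326 (9.72%). DESeq2 on the same design called 96 (0.704%), of which 13 (0.0953%) were higher and 83 (0.608%) lower. A gene was higher in tumour in all 3 pairs in 2731 cases (20.0%) and lower in all 3 in 2756 (20.2%). The Tu_M libraries were all above the Pe_M libraries for 893 genes (6.55%) and all below them for 861 (6.31%). These shares are the background for every count given for a group of genes. Higher and lower describe values here and are not calls.

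The split at the unadjusted level depended on scaling. With library size alone in place of TMM factors, 677 genes were higher and 652 lower, against 515 and 811, while the median fold change of all autosomal genes was 0.05 on the log2 scale instead of 0.01. A fit without the replicate block ignored the pairing and held a term for the style of sample code instead. In it 560 genes had an unadjusted p under 0.05, with 267 higher and 293 lower. Leaving out 1 pair gave 1811 such genes without pair 1, 580 without pair 2 and 526 without pair 3.

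The 3 pairs differed in how far tumour stood from its neighbour tissue. The SD over genes of the log2 difference, tumour minus peritumour, was 0.398 in pair 1, 0.927 in pair 2 and 0.769 in pair 3. Pair 1 had the smallest value of all 14 pairs, and the F pairs ran from 0.539 to 1.08 with a median of 0.73. More than a 2-fold difference was seen for 137 genes higher and 382 lower in pair 1, for 628 and 1564 in pair 2, and for 750 and 1274 in pair 3. Lower genes outnumbered higher ones past that size in each of the 3 pairs. Across genes, which are not independent replicates, the differences of pairs 1 and 2 correlated with r = 0.29, those of pairs 1 and 3 with r = 0.208 and those of pairs 2 and 3 with r = 0.256. Without pair 1, edgeR called 4 genes, all lower in tumour: Cyp1a2, Ly6d, Gulo and Fam124a, each with an adjusted p of 0.0195. Their log2 fold changes in that fit of pairs 2 and 3 were -2.58, -3.24, -2.55 and -2.25.

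**Figure D1:**
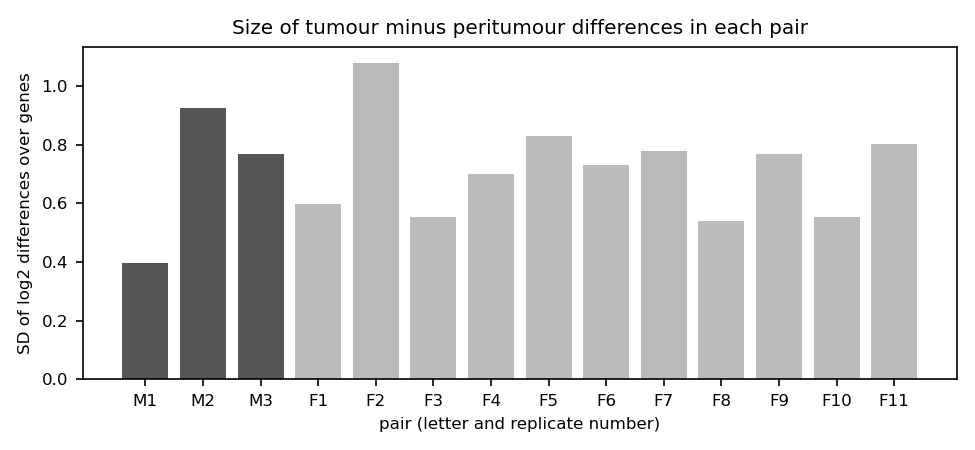
SD over autosomal genes of the log2 difference in expression, tumour minus peritumour, for each of the 14 pairs (dark bars, M; light bars, F). Pair M1 has the lowest bar at 0.398, while M2 and M3 stand at 0.927 and 0.769 within the range of the F pairs.

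Styk1, a membrane-anchored kinase of the receptor tyrosine kinase type, had the smallest p of the genes that averaged at least 10 CPM and were higher in tumour in all 3 pairs. It measured 4.88, 8.87 and 8.67 CPM in the Pe_M libraries of pairs 1, 2 and 3 and 36.0, 56.6 and 47.7 CPM in their Tu_M partners. Every tumour stood above every peritumour library, and the pair differences were close to each other at 2.85, 2.66 and 2.44 log2. The fitted log2 fold change was 2.67 ± 0.51 (SE), with an adjusted p of 0.232 by edgeR and 0.000124 by DESeq2. In the F pairs the fold change was 0.36 ± 0.26 (SE), and 7 of 11 were higher. Styk1 lies at chr6:131299133-131353593 (GRCm38, minus strand).

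The 9 genes that followed by p were of varied function. Bsn, a scaffold protein of the presynaptic active zone, measured 4.38, 2.98 and 2.52 CPM in Pe_M and 17.3, 37.5 and 17.3 CPM in Tu_M, without overlap, and its log2 fold change was 2.80 ± 0.73 (SE) (adjusted p 0.365 by edgeR, 0.00691 by DESeq2). Fam107a, an actin-associated protein, stood at 11.4, 3.99 and 6.78 CPM in Pe_M and 19.4, 58.9 and 84.3 CPM in Tu_M, a log2 fold change of 2.80 ± 0.73 (SE). It was less than 2-fold apart in pair 1 and far apart in pairs 2 and 3. Trdmt1, a methyltransferase that acts on transfer RNA, measured 6.55, 5.96 and 5.59 CPM in Pe_M and 8.46, 37.5 and 17.3 CPM in Tu_M. Bdh2, a cytosolic hydroxybutyrate dehydrogenase, measured 10.0, 6.01 and 9.22 CPM and 20.8, 22 and 53.8 CPM. Smaller shifts without overlap were found for Htra2, a mitochondrial protease (0.76 log2), the zinc finger factor Tshz1 (0.60), the membrane protein Cmtm7 (0.68), the pseudouridine synthase Pus7 (0.48) and Aatf, a nucleolar factor (0.53). Of these 10 genes, DESeq2 called Styk1, Htra2, Bsn, Fam107a, Trdmt1 and Bdh2.

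Among the genes lower in all pairs, Ly6d, a small surface protein anchored by a lipid, had the smallest p. It measured 33.1, 69.9 and 162 CPM in Pe_M and 17.7, 5.77 and 21.4 CPM in Tu_M. Its peritumour level differed widely between pairs, and still every tumour library was below every peritumour library. The log2 fold change was -2.48 ± 0.46 (SE), with an adjusted p of 0.232 by edgeR and 3.81e-05 by DESeq2, and Ly6d was lower in 11 of 11 F pairs as well, at -0.95 ± 0.23 (SE). It lies at chr15:74762056-74763567 (minus strand). Slc48a1, a haem transporter, differed by less, from 58.0, 74.4 and 104 CPM in Pe_M to 47.3, 46.2 and 49.7 CPM in Tu_M (log2 fold change -0.68 ± 0.14 (SE)). Kyat3, a kynurenine aminotransferase, went from 162, 199.8 and 308 CPM to 88.1, 28.3 and 62.4 CPM. Lower without overlap were also the carboxylesterase Ces1f (-1.65 log2), the N-acetyltransferase Nat8f2 (-1.11) and the microtubule end-binding protein Mapre3 (-1.35). The remaining 4 genes of this group were Cyp1a2, Gulo, Mup20 and Cyp2c54, which belong to lists of liver genes.

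**Figure D2:**
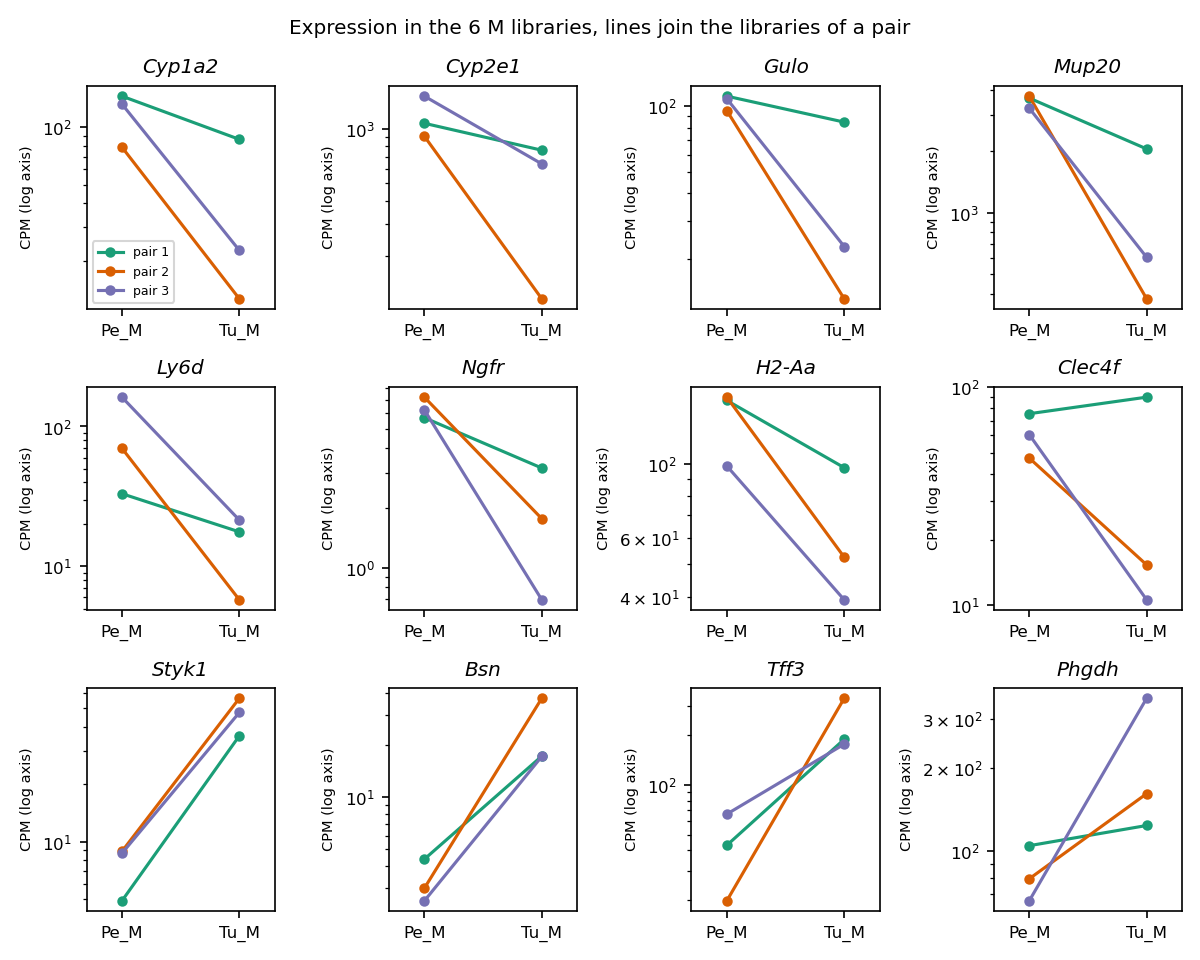
CPM on a log axis in the Pe_M and Tu_M library of each pair for 12 genes, with a line joining the libraries of a pair. The lines of Styk1, Bsn, Tff3 and Phgdh go up in all 3 pairs, those of the other genes go down in all 3, except Clec4f, whose line goes up in pair 1.

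Genes of pericentral hepatocytes were lower in tumour as a group. Of 15 members tested, 13 were lower at an unadjusted p under 0.05, 13 were lower in all 3 pairs and 4 had groups that did not overlap, and the median log2 fold change was -1.55 against 0.01 for all autosomal genes. DESeq2 called 4 of the 15, all lower. The list's median was -0.39 in pair 1, -1.77 in pair 2 and -1.35 in pair 3, and the fitted median was -1.02 without pair 2.

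Cyp1a2, a P450 enzyme that oxidizes caffeine and aromatic amines, measured 145, 78.5 and 132 CPM in Pe_M and 86.2, 12.7 and 22.7 CPM in Tu_M. The tumour of pair 1 was above the peritumour library of pair 2, so the groups overlapped, although tumour was lower in each pair. Its log2 fold change was -1.98 ± 0.37 (SE) (adjusted p 0.232 by edgeR, 6.86e-05 by DESeq2). Cyp2e1, the P450 enzyme that oxidizes ethanol, measured 1069, 907 and 1508 CPM in Pe_M and 759.7, 115 and 638 CPM in Tu_M without overlap, with the tumour of pair 2 far below the others. Its log2 fold change was -1.55 ± 0.45 (SE) (adjusted p 0.392 by edgeR, 0.0264 by DESeq2). Gulo, which makes the last step of vitamin C synthesis in mice, went from 111, 95.8 and 108 CPM to 84.7, 13.2 and 22.9 CPM, a log2 fold change of -1.84 ± 0.40 (SE). Its peritumour values lay close together and the tumour values did not. Lect2, a secreted liver protein, went from 21.4, 22.2 and 16.1 CPM to 15.5, 3.12 and 2.83 CPM (-1.89 log2).

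Glul, glutamine synthetase, measured 224, 205 and 283 CPM in Pe_M and 228, 104 and 167 CPM in Tu_M, and was not lower in pair 1. Its log2 fold change was -0.58 ± 0.25 (SE) (adjusted p 0.499 by edgeR). Axin2 and Lgr5, a feedback inhibitor and a receptor of the Wnt pathway chosen here after their values were seen, had log2 fold changes of -1.89 ± 0.59 (SE) and -1.61 ± 0.53 (SE). Axin2 was nearly level in pair 1, at 4.57, 5.42 and 3.84 CPM in Pe_M and 4.36, 0.765 and 0.414 CPM in Tu_M. Rspo3, a ligand that strengthens Wnt signals and that endothelial cells of the central vein make, measured 5.00, 5.72 and 3.28 CPM in Pe_M and 3.50, 0.882 and 1.17 CPM in Tu_M (-1.52 log2). Rspo3 belongs to the sinusoidal endothelial list and not to the pericentral one.

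Major urinary proteins, pheromone carriers that the mouse liver secretes into blood, showed the lowest median of the lists with at least 10 members tested. Of 18 members tested, 14 were lower at an unadjusted p under 0.05, 14 were lower in all 3 pairs and 14 had groups without overlap, and the median log2 fold change was -2.35. The median was -3.97 without pair 1, -1.71 without pair 2 and -2.02 without pair 3. The list summed to 4563, 5084 and 5698 CPM in the Pe_M libraries and 2817, 557 and 882 CPM in the Tu_M libraries. Mup20, the male pheromone carrier also called darcin, held most of the summed counts, with 3645, 3724 and 3254 CPM in Pe_M and 2052, 378 and 603 CPM in Tu_M. Its peritumour level was nearly the same in the 3 pairs, and its log2 fold change was -2.20 ± 0.48 (SE) (adjusted p 0.259 by edgeR, 0.000548 by DESeq2). Mup21 went from 19.3, 12.9 and 16.6 CPM to 10.8, 3.18 and 2.90 CPM, and Mup14 from 13, 21.5 and 58.6 CPM to 7.93, 0.177 and 6.15 CPM. The Mup genes are near-identical copies on chromosome 4, so the split of reads between them is uncertain and the sum is the firmer value.

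Drug-metabolizing enzymes had lower members too. In cytochrome P450 families 2 and 3, 14 of 36 members tested were lower at an unadjusted p under 0.05 and none higher, 16 were lower in all 3 pairs, and DESeq2 called 8, all lower. Cyp2e1 and Cyp2c29 belong to this list and to the pericentral one and count in both. Cyp2f2 is shared with the periportal list, and Cyp2d9 and Cyp2u1 with the male-biased list. Cyp2a4, Cyp2b9, Cyp2b13, Cyp3a16, Cyp3a41a, Cyp3a41b and Cyp3a44 are shared with the female-biased list. The counts of these lists are therefore not separate results. The median log2 fold change was -0.81, and the medians of the pairs were -0.10, -0.37 and -1.47. Without pair 3 the fitted median was -0.27. Cyp2c50 measured 133, 90.1 and 172 CPM in Pe_M and 46.0, 0.765 and 28.3 CPM in Tu_M, the tumour of pair 2 being almost devoid of it. Cyp2c54 measured 42.0, 21.5 and 64.4 CPM and 15.7, 0.177 and 10.3 CPM, with the same order of tumours. Cyp2a5, which oxidizes coumarin and nicotine, measured 120.5, 159 and 355 CPM and 65.6, 3.00 and 66.4 CPM. Their log2 fold changes were -3.16 ± 0.75 (SE), -2.87 ± 0.67 (SE) and -2.79 ± 0.72 (SE), with adjusted p-values of 0.301, 0.288 and 0.353 by edgeR. The Cyp2a and Cyp2c genes include near-identical copies whose reads can be split between them.

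Conjugating (phase II) enzymes, which attach glucuronic acid, glutathione or sulfate to drug products, were lower in 11 of 33 members tested at an unadjusted p under 0.05 and in 12 in all 3 pairs. Their median log2 fold change was -0.57, but 0.00 in pair 1, and the fitted median was -0.87 without pair 1 and -0.25 without pair 3. Ugt1a5 went from 6.24, 8.63 and 18.3 CPM in Pe_M to 2.64, 0.882 and 6.15 CPM in Tu_M, Ugt3a2 from 39.6, 30.9 and 71.1 CPM to 25.8, 3.82 and 26.2 CPM and Gstm6 from 24.5, 23.2 and 35.4 CPM to 20.4, 5.88 and 11.0 CPM, each without overlap.

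Liver genes that follow the sex-specific pattern of growth hormone included lower members of both the male-biased and the female-biased kind. Some of these genes belong to other lists too: Mup20 to major urinary proteins, Ugt2b1, Ugt2b38 and Gstp1 to conjugating enzymes, and several to the P450 families. Of 15 male-biased genes tested, 8 were lower at an unadjusted p under 0.05 and none higher, with a median of -0.66, and of 16 female-biased genes 4 were lower and none higher, with a median of -0.43. The male-biased median was -1.04 without pair 1, and the female-biased median was -0.82 without pair 1, -1.01 without pair 2 and -0.20 without pair 3. Elovl3, a fatty acid elongase, measured 6.30, 3.39 and 10.1 CPM in Pe_M and 2.12, 0 and 1.31 CPM in Tu_M. Cyp2d9, a male-biased P450 gene, had a log2 fold change of -1.26 ± 0.34 (SE), and Cyp2a4, a female-biased one, went from 3.21, 1.55 and 7.34 CPM to 0.991, 0.235 and 0.414 CPM. In the growth hormone axis, Prlr, the prolactin receptor, measured 28.9, 15.3 and 25.6 CPM in Pe_M and 22.1, 4.35 and 8.49 CPM in Tu_M. Igf1, the growth factor that growth hormone induces, measured 158, 135 and 131 CPM and 138, 73.6 and 29.3 CPM. Its log2 differences were -0.19, -0.87 and -2.15 in pairs 1, 2 and 3. Ghr, the growth hormone receptor, had a log2 fold change of -0.41 ± 0.23 (SE). The axis as a whole had 2 of 19 members lower at an unadjusted p under 0.05 and a median of -0.26, or -0.02 without pair 3.

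General hepatocyte genes differed by less. In the hepatocyte identity list 2 of 20 members were lower at an unadjusted p under 0.05, namely the nuclear receptor Nr1i3 (-1.07 log2) and tyrosine aminotransferase, Tat (-0.69 log2), and the median was -0.17, or -0.05 without pair 3. Alb, the albumin gene, had a log2 fold change of -0.44 ± 0.34 (SE). Its log2 differences were -0.125, 0.025 and -1.23 in pairs 1, 2 and 3, so that it was nearly level in pairs 1 and 2. Periportal genes had a median of -0.14 with 1 of 13 lower, and -0.25, -0.02 and 0.31 without pair 1, 2 or 3. That member was Pck1, the rate-limiting enzyme of glucose synthesis, at 468, 339 and 661 CPM in Pe_M and 515, 74.8 and 189 CPM in Tu_M, higher in tumour in pair 1 and lower in pairs 2 and 3. Aldh1b1, a mitochondrial aldehyde dehydrogenase, was above the peritumour range in all 3 tumours, at 766, 663 and 657 CPM against 578, 336 and 500.4 CPM (0.59 log2). In the urea cycle and amino acid breakdown list, 1 of 25 members, again Tat, was lower, and the median was -0.12, or -0.22 without pair 1 and -0.03 without pair 3. Arg1, arginase, had a log2 fold change of -0.31 ± 0.23 (SE).

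Secreted liver proteins of the acute phase had a median of -0.64, 8 of 21 being lower and none higher at an unadjusted p under 0.05. The medians of the pairs were 0.01, -0.28 and -1.37, and the fitted median without pair 3 was -0.20. Serpina3k, a serine protease inhibitor of a family of close copies, measured 724, 1174 and 2262 CPM in Pe_M and 449, 48.8 and 549 CPM in Tu_M (-2.38 log2). Saa2, serum amyloid A, measured 15.1, 373 and 310.5 CPM and 6.81, 349 and 55.9 CPM: both libraries of pair 1 were low, and both of pair 2 were high. Complement genes had 7 of 28 members lower, 13 lower in all 3 pairs, and a median of -0.47, or -0.22 without pair 3. Mbl1, a mannose-binding lectin, went from 46.4, 55.9 and 71.8 CPM to 42.1, 31.8 and 12.2 CPM, and Serping1, the inhibitor of the first complement component, from 296, 459 and 624 CPM to 215, 359 and 157 CPM. Coagulation genes had a median of -0.21, and of -0.32, -0.38 and 0.08 without pair 1, 2 or 3. Of 27 members 1 was lower, Vwf, which also belongs to the vascular endothelial list. Bile acid genes had 3 of 24 lower, among them Hsd3b7, a synthesis enzyme (-0.67 log2), and the export pumps Abcc3 (-1.25) and Abcb4 (-0.68), and a median of -0.37, or -0.24 without pair 2 and -0.19 without pair 3.

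Ehhadh, Cyp4a14 and Cyp4a10, of the fatty acid oxidation and peroxisome list, differed widely between the pairs. Ehhadh, a peroxisomal enzyme, measured 357, 2580 and 7596 CPM in Pe_M and 265, 1054 and 4237 CPM in Tu_M, and Cyp4a14 456, 1339 and 5613 CPM and 415, 163 and 1345 CPM. Cyp4a10 was likewise highest in pair 3 in both tissues. Within each pair the tumour was lower, with log2 fold changes of -0.86 ± 0.27 (SE) for Ehhadh, -1.77 ± 0.49 (SE) for Cyp4a14 and -1.04 ± 0.38 (SE) for Cyp4a10. The list as a whole had 4 of 28 members lower and a median of -0.14. Cyp4a14 also belongs to the female-biased list and counts in both. In lipid and cholesterol synthesis, 5 of 29 members were lower and 14 were lower in all 3 pairs, with a median of -0.29, or -0.08 without pair 3. Scd1, the stearoyl-CoA desaturase, measured 2899, 2173 and 5288 CPM in Pe_M and 1463, 1361 and 1236 CPM in Tu_M without overlap, a log2 fold change of -1.25 ± 0.36 (SE) (adjusted p 0.392 by edgeR, 0.0406 by DESeq2). Elovl5, an elongase, had a log2 fold change of -0.76 ± 0.20 (SE), and Me1, malic enzyme, -1.46 ± 0.56 (SE).

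**Figure D3:**
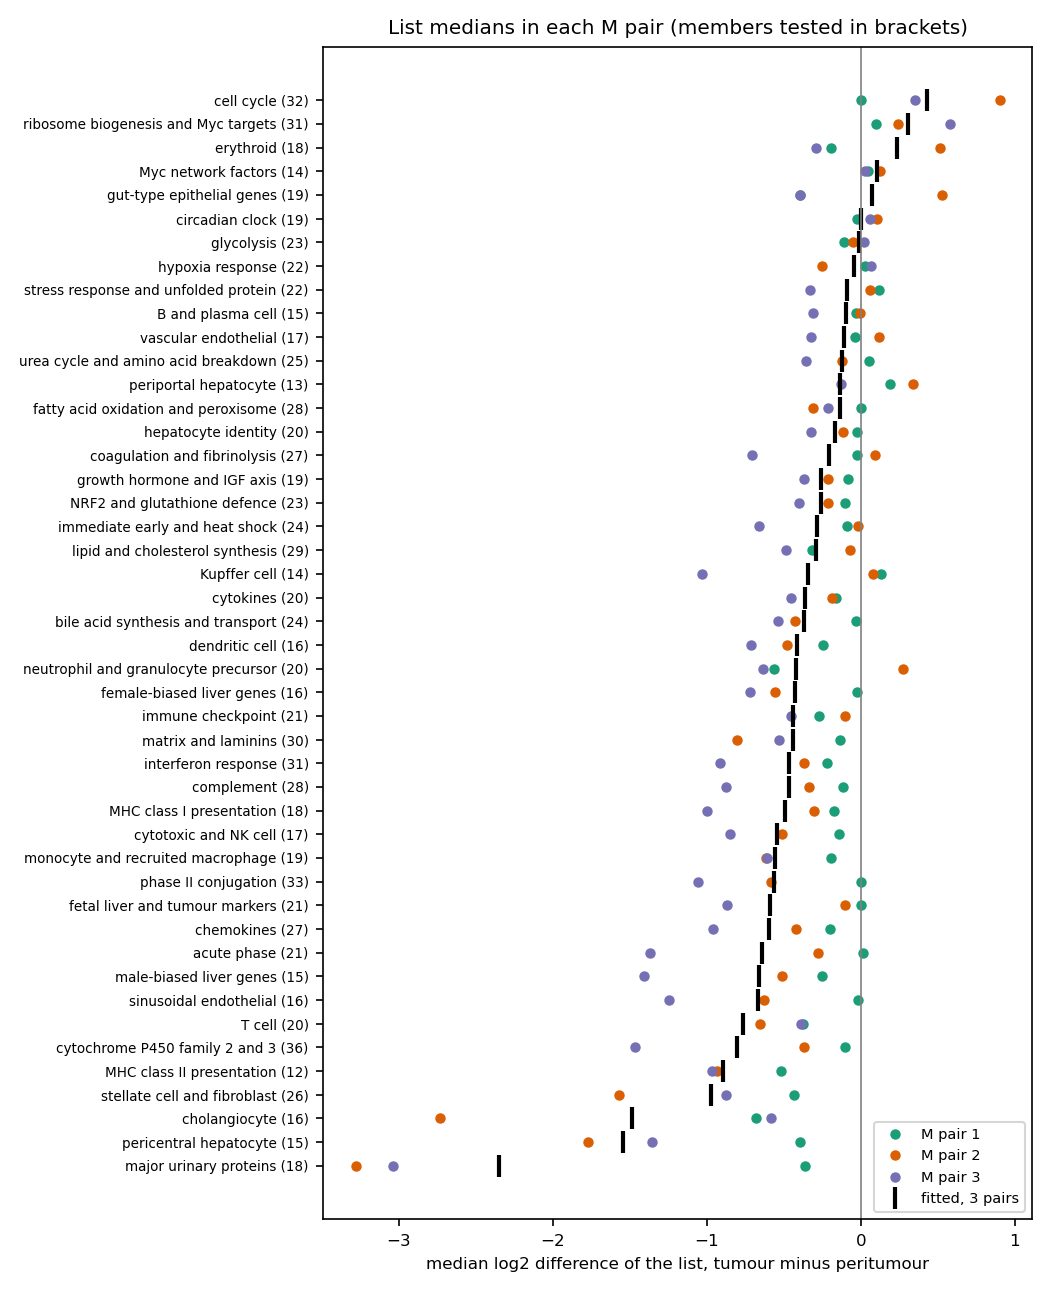
Median log2 difference, tumour minus peritumour, of the tested members of 46 gene lists (number of members in brackets) in each M pair (coloured points) and from the fit over the 3 pairs (black bars). Of these lists 40 have a fitted median below 0, the lowest being major urinary proteins at -2.35, and pair 1 lies nearer to 0 than pairs 2 and 3 in the pericentral, stellate, MHC class II and major urinary protein lists.

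Myc transcripts were abundant in both tissues. Myc measured 329.8, 259 and 350.2 CPM in Pe_M and 333, 351 and 668 CPM in Tu_M, level in pair 1 and highest in the tumour of pair 3. The groups overlapped, and the log2 fold change was 0.46 ± 0.22 (SE) (adjusted p 0.523 by edgeR). Whether transcripts of the transgene count toward this gene was not analysed here. Of its partners and antagonists, Max had a log2 fold change of 0.15 ± 0.13 (SE) and Mycl -0.82 ± 0.44 (SE), and in the list of 14 network factors none had an unadjusted p under 0.05.

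Ribosome biogenesis genes and other Myc targets were slightly higher in tumour. Of 31 members tested, 22 were higher in all 3 pairs and 1 was lower in all 3, and the median log2 fold change was 0.30. At an unadjusted p under 0.05, 5 were higher and 1, the cyclin gene Ccnd2, named only for this count, was lower, and 5 had groups without overlap. Differences were graded over the pairs, with medians of 0.10, 0.24 and 0.58 in pairs 1, 2 and 3, and the fitted median was 0.20 without pair 3. Rrp9, which helps to process ribosomal RNA, measured 25.9, 19.1 and 24.5 CPM in Pe_M and 26.8, 28.8 and 47.0 CPM in Tu_M (0.53 ± 0.20 (SE) log2). Mybbp1a, a nucleolar protein, measured 277, 262 and 339 CPM and 292, 357 and 558 CPM, and Pes1, needed for the large ribosomal subunit, 109, 100.2 and 129.8 CPM and 120.5, 125 and 278 CPM. In all 3 of these genes the tumour of pair 3 was the highest library, and the adjusted p-values by edgeR were 0.465, 0.465 and 0.468. Npm1, nucleophosmin, chosen after its values were seen, was far higher in the tumour of pair 3 than in the other tumours, with 832, 939.9 and 776 CPM in Pe_M and 941, 1068 and 2299 CPM in Tu_M.

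The promoters of this list were searched for the E-box CACGTG, the sequence that Myc and Max bind, which reads the same on both strands. RefSeq promoter sequences (GRCm38.p6) were matched for 25 of 31 members, and in the 250 bases before the annotated start 4 of 25 (16%) held the motif, against 1854 of 27025 genes (6.86%). These 4 genes were Nop2, Nme1, Ldha and Cdk4. Their windows are shown because they hold each match of the list, with the motif in capitals and 20 bases on either side where the upstream window allows. They lie at chr6:125131803-125131848 (Nop2, plus strand), chr11:93968273-93968310 (Nme1, minus strand), chr7:46845639-46845781 (Ldha, plus strand) and chr10:127063343-127063534 (Cdk4, plus strand).
Nop2: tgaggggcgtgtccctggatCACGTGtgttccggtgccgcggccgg
Nme1: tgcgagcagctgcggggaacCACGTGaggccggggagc
Ldha: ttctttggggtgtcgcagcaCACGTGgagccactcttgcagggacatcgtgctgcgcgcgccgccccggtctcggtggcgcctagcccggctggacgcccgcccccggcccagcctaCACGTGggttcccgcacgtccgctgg
Cdk4: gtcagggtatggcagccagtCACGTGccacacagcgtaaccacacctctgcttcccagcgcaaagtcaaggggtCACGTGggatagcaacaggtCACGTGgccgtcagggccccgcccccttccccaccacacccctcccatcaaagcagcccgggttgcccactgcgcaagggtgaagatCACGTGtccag
The windows of Nop2 and Nme1 hold 1 motif each, that of Ldha 2 and that of Cdk4 4, the first of them 172 bases and the last 11 bases before the start. Nop2, a methyltransferase of ribosomal RNA, measured 98.2, 79.7 and 95.2 CPM in Pe_M and 112, 96.0 and 139.6 CPM in Tu_M, higher in each pair (0.34 ± 0.16 (SE) log2). Nme1, a nucleoside diphosphate kinase, measured 125, 134 and 181 CPM and 147, 136 and 291 CPM (0.31 ± 0.17 (SE) log2). Ldha, lactate dehydrogenase A, was level at 0.01 ± 0.19 (SE) log2, and Cdk4, the kinase of early cell cycle entry, was at 0.15 ± 0.19 (SE) log2. Of the 4, the gene with the most motifs did not have the largest difference. They were picked by the motif, after values were seen, and a match is a description of the sequence only.

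Cell cycle genes were higher in the tumour of pair 2. Of 32 members tested, 6 were higher at an unadjusted p under 0.05 and none lower, 14 were higher in all 3 pairs, and the median log2 fold change was 0.43. The medians of the pairs were 0.00, 0.90 and 0.35, and the fitted median was 0.21 without pair 2. Ccne1, cyclin E, measured 22.7, 24.2 and 17.9 CPM in Pe_M and 28.5, 59.9 and 41.6 CPM in Tu_M without overlap (0.95 ± 0.30 (SE) log2, adjusted p 0.415 by edgeR). Birc5, survivin, measured 53.1, 36.8 and 40.8 CPM and 62.3, 79.8 and 78.9 CPM without overlap, and Cdk1, the mitotic kinase, 56.7, 38.3 and 38.5 CPM and 61.9, 76.7 and 47.4 CPM with overlap. Mki67, the proliferation marker, went from 155, 116 and 33.8 CPM to 147, 263 and 66 CPM. It was slightly lower in the tumour of pair 1 and about 2-fold higher in those of pairs 2 and 3, and its log2 fold change was 0.69 ± 0.48 (SE) (adjusted p 0.632 by edgeR).

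Serine and asparagine synthesis genes, induced by the amino acid stress response, were the members of the stress list that stood out. Phgdh, which commits glucose carbon to serine, measured 105, 79.4 and 66.1 CPM in Pe_M and 124, 162 and 358 CPM in Tu_M. All 3 tumours were above all peritumour libraries, and the difference was smallest in pair 1 and largest in pair 3. Its log2 fold change was 1.22 ± 0.42 (SE) (adjusted p 0.446 by edgeR), and it was higher in 11 of 11 F pairs. Psat1, the next enzyme, measured 67.6, 68.2 and 66.9 CPM and 76.6, 124 and 161 CPM, and Asns, asparagine synthetase, 108, 105 and 108 CPM and 142, 219 and 226 CPM, both without overlap. At an unadjusted p under 0.05 the list as a whole had 3 of 22 members higher, these 3, and none lower. In all 3 pairs 6 members were higher and 5 lower. The median was -0.09, or -0.20 without pair 1 and 0.11 without pair 3, so the list did not move 1 way.

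Glycolysis, hypoxia and clock genes showed medians near 0, at -0.02, -0.05 and 0.00. Of 23 glycolysis genes tested, 3 were higher and 5 lower in all 3 pairs. Pfkp, the platelet-type phosphofructokinase, was higher in each pair, at 39.6, 62.1 and 40.1 CPM in Pe_M and 61.6, 79.3 and 82.9 CPM in Tu_M. Slc16a3 and Ldhb, at most 3.58 CPM in any M library, were lower in each pair (-1.07 and -1.44 log2). Hif3a, a hypoxia-inducible factor subunit, was low in Pe_M at 0.741, 0.417 and 0.629 CPM and stood at 4.63, 13.5 and 2.00 CPM in Tu_M (3.19 ± 1.18 (SE) log2). The oxygen sensors Egln3 and Egln1 had log2 fold changes of -0.77 and -0.53. Npas2, a clock factor, measured 4.57, 6.67 and 1.398 CPM in Pe_M and 1.78, 1.35 and 0.414 CPM in Tu_M, and its log2 fold change of -1.80 ± 0.41 (SE) had an adjusted p of 0.269 by edgeR and 0.00800 by DESeq2. Genes of the NRF2 defence had 6 of 23 members lower and 12 lower in all 3 pairs, with a median of -0.26, or -0.14 without pair 3. Abcc3 and Abcc4 belong to this list and to the bile acid one, and Gsta1 and Gsta4 to this list and the conjugating enzymes. Srxn1, sulfiredoxin, went from 53.2, 76.4 and 103 CPM to 38.7, 49.3 and 34.3 CPM. Among immediate early and heat shock genes 1 of 24 was lower, the chaperone Hspa1b, at 20.4, 24.4 and 40.2 CPM in Pe_M and 14.3, 17.9 and 16.6 CPM in Tu_M, and the median was -0.28, or -0.05 without pair 3.

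Markers of bile duct cells were lower, most in pair 2. Of 16 cholangiocyte markers tested, 3 were lower at an unadjusted p under 0.05, 10 were lower in all 3 pairs, and the median log2 fold change was -1.49, or -0.82 without pair 2. The list summed to 373, 520.0 and 234 CPM in Pe_M and 291, 222 and 184 CPM in Tu_M. Sox9, the duct and progenitor factor, measured 15.6, 25.8 and 10.8 CPM in Pe_M and 11.8, 1.59 and 3.52 CPM in Tu_M (-1.89 ± 0.60 (SE) log2, adjusted p 0.415 by edgeR, 0.0378 by DESeq2). Spp1, osteopontin, measured 137, 230.1 and 58.2 CPM and 69.4, 16.8 and 20.6 CPM. Most of the fall of the list's sum in each pair was that of Spp1. Krt19, a keratin of ducts, went from 9.14, 13.6 and 2.66 CPM to 4.36, 0.353 and 1.38 CPM, and Epcam, a duct surface protein, from 8.58, 11.5 and 3.35 CPM to 3.24, 0.765 and 1.04 CPM. In all 4 genes the peritumour library of pair 2 was the highest and the tumour of pair 2 the lowest. In bulk tissue, fewer cells of a type and less RNA per cell cannot be told apart, here and for each marker list that follows.

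Fetal and gut-type markers varied between the tumours. Afp, the fetal albumin-like protein, measured 16.7, 8.28 and 4.54 CPM in Pe_M and 13.3, 74.4 and 2.35 CPM in Tu_M, high in the tumour of pair 2 alone (0.66 ± 1.59 (SE) log2, and -0.59 without pair 2). Muc13, a mucin of gut epithelium, stood at 0.617, 0.893 and 0.210 CPM in Pe_M and 0.727, 50.2 and 2.35 CPM in Tu_M, again high in pair 2. Tff3, a secreted trefoil peptide, was above the peritumour range in all 3 tumours, with 43.0, 19.8 and 66.5 CPM in Pe_M and 189, 336 and 177 CPM in Tu_M. Its log2 fold change was 2.51 ± 1.13 (SE) (adjusted p 0.509 by edgeR). The gut-type list had 1 of 19 members higher, Tff3, and a median of 0.07, with -0.39, 0.53 and -0.40 in the pairs, and the fitted median was 0.13, -0.38 and 0.36 without pair 1, 2 or 3. Of 21 fetal liver and tumour markers, 2 were higher and 5 lower at an unadjusted p under 0.05, and the median was -0.59, or 0.0045 without pair 3. Sox9, Spp1 and Epcam belong to this list and to the cholangiocyte one, and Tff3 and Epcam to this list and the gut-type one. The gut-type list shares Krt19, Epcam, Cldn4 and Cldn7 with the cholangiocyte list, so the counts of these lists are not separate results.

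Genes of antigen presentation by MHC class II were lower in the tumours. Of 12 genes tested, 6 were lower at an unadjusted p under 0.05 and none higher, 10 were lower in all 3 pairs and 5 had groups without overlap. The median log2 fold change was -0.89, the pairs had medians of -0.52, -0.93 and -0.97, and the list summed to 951, 1051 and 697 CPM in Pe_M and 661, 502 and 311 CPM in Tu_M. H2-Aa, an alpha chain, measured 154, 158 and 98.4 CPM in Pe_M and 97.2, 52.4 and 39.1 CPM in Tu_M. H2-Ab1, its beta chain partner, measured 134, 149 and 97.3 CPM and 87.8, 54.0 and 38.9 CPM. In both genes pair 1 had the highest tumour value, still below the lowest peritumour value, and the log2 fold changes were -1.20 ± 0.42 (SE) and -1.13 ± 0.41 (SE) (adjusted p 0.446 and 0.449 by edgeR). H2-DMb1, another gene of class II presentation, went from 18.1, 21.5 and 13 CPM to 11.8, 10.4 and 5.94 CPM. Its log2 fold change was -0.93 ± 0.25 (SE) (adjusted p 0.371 by edgeR, 0.0475 by DESeq2).

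MHC class I genes were lower by less. Of 18 tested, 10 were lower at an unadjusted p under 0.05, 15 were lower in all 3 pairs, and the median was -0.49, with -0.18, -0.31 and -1.0 in pairs 1, 2 and 3, and -0.21 in the fit without pair 3. H2-Q4 measured 36.2, 55.9 and 43.5 CPM in Pe_M and 29.9, 36.7 and 20.2 CPM in Tu_M (-0.66 ± 0.17 (SE) log2, adjusted p 0.353 by edgeR, 0.0396 by DESeq2), and as one of a family of close copies its reads may be split. H2-T22 measured 49.2, 55.8 and 60.6 CPM and 39.7, 44.7 and 29.0 CPM without overlap. Psmb8, a subunit of the immunoproteasome, which cuts peptides for presentation, measured 16.5, 30.0 and 24.7 CPM and 12.8, 16.9 and 8.91 CPM (-0.88 ± 0.24 (SE) log2). B2m, the light chain of class I, chosen after its values were seen, went from 1259, 1410 and 1284 CPM to 1122, 888 and 707 CPM (-0.56 ± 0.18 (SE) log2).

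Interferon-response genes had 10 of 31 members lower at an unadjusted p under 0.05, 20 lower in all 3 pairs and a median of -0.47, or -0.24 without pair 3. None had groups without overlap. Irf7, a driver of the type I response, measured 45.2, 158 and 51.4 CPM in Pe_M and 33.4, 129 and 13.5 CPM in Tu_M. Irf1, another interferon regulatory factor, measured 23.6, 95.7 and 54.2 CPM and 21.1, 62.4 and 30.9 CPM. In these genes both libraries of pair 2 were higher than either library of pair 1. Their log2 fold changes were -0.86 ± 0.27 (SE) and -0.53 ± 0.17 (SE). Cd274, which encodes the checkpoint ligand PD-L1, was likewise highest in pair 2 in both tissues, with 5.31, 18.4 and 9.43 CPM in Pe_M and 4.49, 14.3 and 4.56 CPM in Tu_M (-0.55 ± 0.31 (SE) log2, adjusted p 0.584 by edgeR). Checkpoint genes as a list had 2 of 21 lower, Vtcn1 and Btla, and a median of -0.44, or -0.25 without pair 3.

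T cell transcripts were scarce in both tissues. The list summed to 31.5, 22.7 and 22.2 CPM in Pe_M and 24.4, 15.4 and 13.1 CPM in Tu_M, 3 of 20 members tested were lower at an unadjusted p under 0.05, 12 were lower in all 3 pairs, and the median was -0.77, with -0.41 without pair 2 and -0.51 without pair 3. Zap70, a kinase of the T cell receptor, measured 1.61, 1.37 and 4.19 CPM in Pe_M and 1.12, 0.706 and 0.829 CPM in Tu_M, and Cd3g, a chain of that receptor, 2.16, 1.49 and 0.978 CPM and 0.991, 0.588 and 0.345 CPM. Cd8a, the marker of cytotoxic T cells, was level, at 2.53, 1.73 and 1.89 CPM and 3.11, 1.77 and 1.59 CPM (0.03 ± 0.41 (SE) log2, and -0.10 without pair 1). Cytotoxic and NK cell genes had 2 of 17 lower, Klrd1 and Ccl5, and a median of -0.55, or -0.22 without pair 3. Coro1a, an actin regulator of leukocytes, was lower without overlap, at 19.5, 24.4 and 13.4 CPM in Pe_M and 11.9, 11.7 and 5.80 CPM in Tu_M (-0.99 ± 0.25 (SE) log2, adjusted p 0.330 by edgeR, 0.0299 by DESeq2). B and plasma cell genes had a median of -0.10, or -0.39 without pair 1 and -0.24 without pair 2.

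Resident macrophages of the liver, the Kupffer cells, were represented unevenly. Clec4f, which marks them, measured 75.5, 47.3 and 60.6 CPM in Pe_M and 89.9, 15.3 and 10.6 CPM in Tu_M: it was higher in the tumour of pair 1 and lower in those of pairs 2 and 3. Its log2 fold change was -1.29 ± 0.45 (SE) (adjusted p 0.446 by edgeR). Folr2 went from 7.29, 6.43 and 8.18 CPM to 5.95, 2.00 and 1.38 CPM and Id3 from 22.9, 37.3 and 19.7 CPM to 21.3, 9.29 and 6.70 CPM, and these 3 were the members lower at an unadjusted p under 0.05 of 14 tested. The list median was -0.35, with 0.13 in pair 1, 0.08 in pair 2 and -1.03 in pair 3, and the fitted median was -0.64 without pair 1 and 0.11 without pair 3. Genes of monocytes and recruited macrophages had 3 of 19 lower and a median of -0.56, or -0.35 without pair 3. Csf1r, the receptor for the macrophage growth factor, had a log2 fold change of -0.62 ± 0.24 (SE), Cx3cr1 -1.59 ± 0.62 (SE) and Itgam -0.99 ± 0.42 (SE). The ligand Csf1 measured 23.6, 32.0 and 21.0 CPM in Pe_M and 15.5, 17.2 and 11.1 CPM in Tu_M, lower in all 3 pairs without overlap (-0.81 ± 0.27 (SE) log2).

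Dendritic cell markers had 3 of 16 members lower at an unadjusted p under 0.05, 10 lower in all 3 pairs and a median of -0.42, with Itgax at 13.8, 21.1 and 11.3 CPM in Pe_M and 10.6, 9.82 and 5.25 CPM in Tu_M. Of 27 chemokine genes 3 were lower, 11 were lower in all 3 pairs and the median was -0.60, or -0.37 without pair 3. Cxcl12, a chemokine of stromal cells, measured 270.1, 256 and 260.1 CPM in Pe_M and 201.4, 147 and 175 CPM in Tu_M, with a narrow peritumour range and no overlap (-0.60 ± 0.20 (SE) log2). Cxcl14 measured 8.52, 10.2 and 4.89 CPM and 4.16, 0.941 and 1.80 CPM (-1.91 ± 0.58 (SE) log2). Cytokine genes had 2 of 20 lower and a median of -0.36, with -0.62 without pair 1 and -0.07 without pair 3. Neutrophil and granulocyte precursor genes had none of 20 at an unadjusted p under 0.05 and a median of -0.42, which was -0.22, -0.76 and -0.14 without pair 1, 2 or 3. Erythroid genes had none of 18 and a median of 0.24, or -0.13 without pair 2 and 0.53 without pair 3. Hbb-bs, adult beta globin, which reports blood in the sample, measured 440.2, 391 and 450.3 CPM in Pe_M and 307, 269.5 and 149 CPM in Tu_M, lower without overlap. The erythroid list summed to 1220, 1129 and 1284 CPM in Pe_M and 914, 942 and 697 CPM in Tu_M, and its part in the immune results was not tested.

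Stellate cells and fibroblasts, the matrix-producing cells of the liver, had lower levels of many of their markers in tumour. Of 26 markers tested, 15 were lower at an unadjusted p under 0.05 and none higher, 23 were lower in all 3 pairs, and the median log2 fold change was -0.97, or -0.65 without pair 2. DESeq2 called 4, all lower. The list summed to 1595, 2052 and 829 CPM in Pe_M and 1156, 645 and 426 CPM in Tu_M. Ngfr, a neurotrophin receptor of stellate cells, measured 5.68, 7.21 and 6.22 CPM in Pe_M and 3.17, 1.77 and 0.691 CPM in Tu_M without overlap (-1.94 ± 0.44 (SE) log2, adjusted p 0.269 by edgeR, 0.00640 by DESeq2). Reln, reelin, measured 61.7, 46.3 and 25.8 CPM and 44.4, 12.0 and 15.1 CPM, and Ecm1, a matrix protein that hepatocytes also make, 72.9, 73.0 and 54.6 CPM and 56.9, 14.7 and 19.5 CPM. For both genes the tumour of pair 1 overlapped the peritumour range, and the tumours of pairs 2 and 3 were below it. Acta2, the actin of activated stellate cells and of smooth muscle, chosen after its values were seen, was higher in each pair, at 22.9, 8.28 and 5.24 CPM in Pe_M and 42.0, 11.1 and 7.32 CPM in Tu_M (0.60 ± 0.35 (SE) log2).

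Extracellular matrix genes had 5 of 30 members lower, 18 lower in all 3 pairs and a median of -0.44. Col6a1 and Col6a2, chains of collagen VI, went from 41.3, 65.6 and 21.2 CPM to 20.7, 12.5 and 12.2 CPM and from 29.4, 49.1 and 18.1 CPM to 15.5, 9.65 and 9.88 CPM, both without overlap. Their log2 fold changes were -1.39 ± 0.44 (SE) and -1.38 ± 0.45 (SE). Col14a1 measured 156, 152 and 88.5 CPM in Pe_M and 144, 57.6 and 47.2 CPM in Tu_M (-0.80 ± 0.23 (SE) log2). The peritumour library of pair 3 was the lowest of its group for each of the 3 collagen genes.

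Endothelial genes were lower mainly among the sinusoidal markers. Sinusoidal endothelial markers had 6 of 16 members lower and 10 lower in all 3 pairs, with a median of -0.67, or -0.33 without pair 3. Vascular endothelial markers had 2 of 17 lower and a median of -0.11, or -0.18 without pair 2 and 0.07 without pair 3. The sinusoidal list summed to 367, 293 and 398 CPM in Pe_M and 364, 215 and 191 CPM in Tu_M, level in pair 1. Clec4g, a lectin of sinusoids, measured 30.6, 21.2 and 30.7 CPM in Pe_M and 29.2, 7.65 and 9.32 CPM in Tu_M, and Flt4, a receptor for vascular growth factors, 30.8, 17.6 and 27.1 CPM and 20.8, 14.2 and 12.6 CPM. Vwf, the clotting carrier protein of vessel walls, measured 11.0, 15.7 and 13.9 CPM and 10.7, 4.24 and 3.52 CPM, level in pair 1 (-1.29 ± 0.35 (SE) log2, adjusted p 0.375 by edgeR, 0.0388 by DESeq2). Eng, endoglin, had a log2 fold change of -0.50 ± 0.18 (SE).

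**Figure D4:**
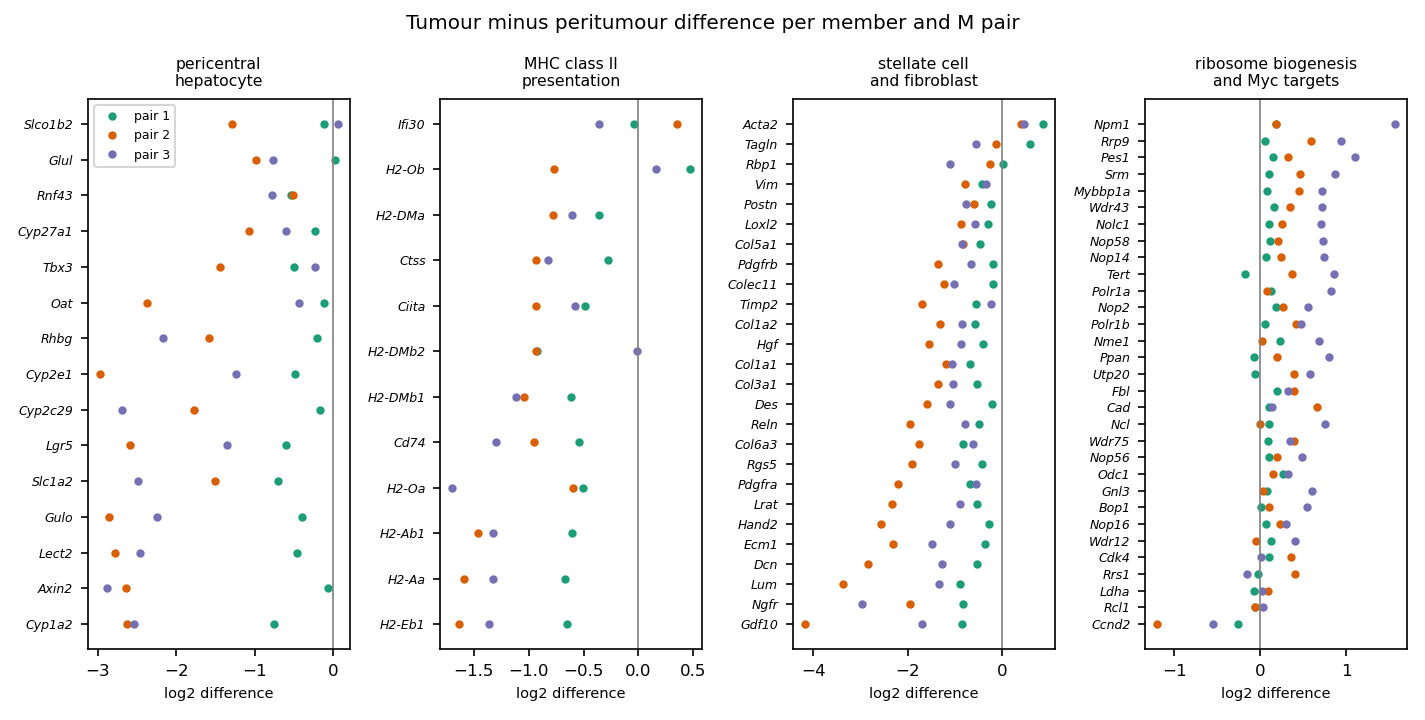
Log2 difference, tumour minus peritumour, of each tested member in M pairs 1 to 3 for 4 gene lists, members ordered by fitted fold change. In the pericentral, MHC class II and stellate lists most points lie left of 0 and those of pair 1 are mostly nearest to it, and in the Myc target list most lie right of 0.

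Levels of different genes can be compared only per length, for which the deposited TPM values were used. Mean TPM in the Pe_M libraries was 7423 for Mup20, 1073 for Scd1, 1088 for Cyp2e1, 1722 for Ehhadh, 210.1 for Myc, 234 for H2-Aa, 41.3 for Clec4f and 1.05 for Cd8a. In Tu_M it was 2138, 451, 476, 935, 303, 108, 27.2 and 1.13 in the same order. By these means Myc was close to H2-Aa in peritumour tissue and above it in tumour, and below Scd1, Cyp2e1 and Ehhadh in both. The order need not hold in each library, since Cyp2e1 alone measured 759.7, 115 and 638 CPM in the 3 tumours.

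Of DESeq2's 96 calls, 39 belonged to at least 1 gene list and 95 moved the same way in all 3 pairs. The share of all tested genes that belong to a list was not counted, so the 39 are a description only. Over all autosomal genes, 20.0% were higher and 20.2% lower in all 3 pairs. A fit within pairs favours genes that move alike in them, so the 95 are not separate support. Some rested on few counts or on 1 library: Slc22a6, an organic anion transporter, was called higher although it stood at 22.4 CPM in the tumour of pair 2 and at no more than 0.198 CPM in the other 5 libraries. Dmbt1 was called lower with at most 6 counts in any M library. Mstn, myostatin, was called higher with 7.18 and 3.25 CPM in the tumours of pairs 2 and 3 and at most 0.179 CPM elsewhere. These 3 genes were chosen after their values were seen.

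The M pairs were set against the 11 F pairs to see where they differed. By edgeR, 0 genes (0.0%) passed for the difference of the tumour effects, the lowest adjusted p was 0.689, and 948 (6.95%) had an unadjusted p under 0.05, with 492 (3.61%) higher and 456 (3.34%) lower in M. DESeq2 called 1 gene, Dmbt1. Without pair 3, 398 genes had an unadjusted p under 0.05 for the difference. All 6 M libraries and 6 of the F libraries share a style of sample code, and a fit of these 12 libraries alone gave 0 genes that passed and 1064 at an unadjusted p under 0.05. In the F pairs themselves 1323 genes (9.7%) passed for tumour against peritumour. Across genes, the fitted fold changes in M and F correlated with r = 0.334. Pair 2 of M was closest to F pair 7, with r = 0.715 between their differences across genes, more than with either M pair.

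Several gene groups had lower medians in M than in F. The median log2 fold change was -1.49 in M and 0.06 in F for cholangiocyte markers, -0.89 and 0.04 for MHC class II, -0.77 and 0.07 for T cell genes, -0.97 and -0.30 for stellate cells and -0.44 and 0.20 for matrix. At an unadjusted p under 0.05 for the difference, 10 of 30 matrix genes were lower in M, 6 of 12 MHC class II genes, 6 of 18 MHC class I genes and 5 of 26 stellate markers, and none of these lists had a member higher. For major urinary proteins the medians were -2.35 and -1.62, for pericentral genes -1.55 and -0.76, and for P450 families 2 and 3 -0.81 and -1.0. Gut-type genes had a median of 1.00 in F against 0.07 in M. These are descriptions, and since no gene passed, no list is shown to differ between the letters.

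**Figure D5:**
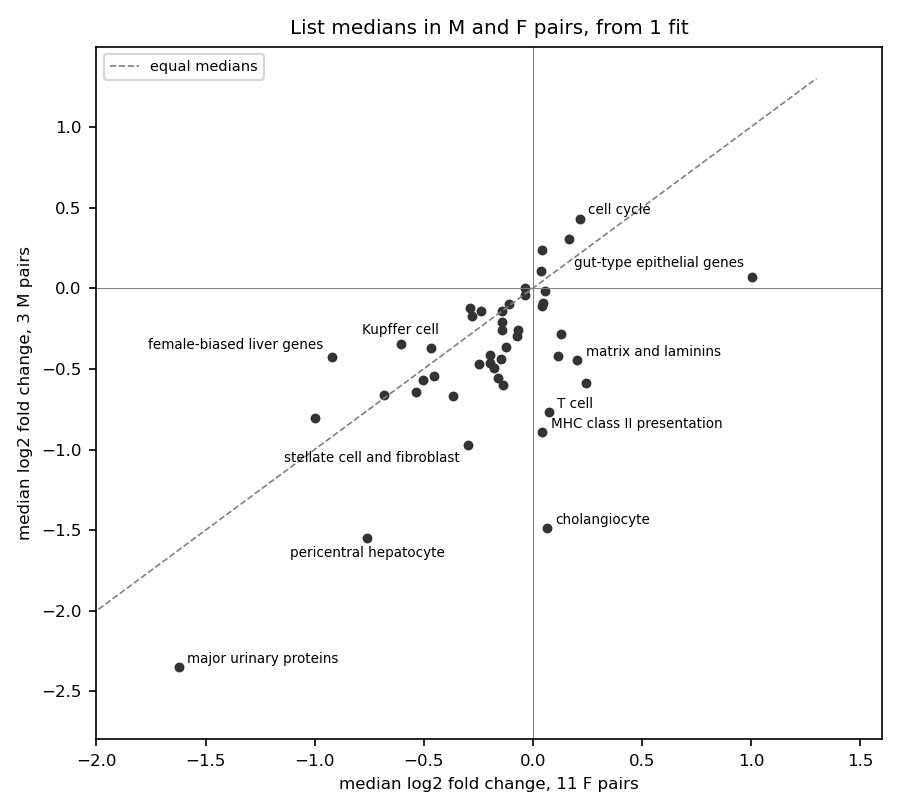
Median log2 fold change, tumour against peritumour, of 46 gene lists in the 11 F pairs (x axis) and the 3 M pairs (y axis), both from 1 fit, with a dashed line where they would be equal. Of the 46 lists 31 lie below the line, among them cholangiocyte markers at -1.49 in M and 0.06 in F and MHC class II genes at -0.89 and 0.04.

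For single genes with the smallest p for the difference, the fitted effects had opposite signs in M and F in all but Styk1. Slc10a5, a bile acid transporter family member, measured 24.4, 24.4 and 18.5 CPM in Pe_M and 31.2, 41.0 and 26.9 CPM in Tu_M, higher in 3 of 3 M pairs and lower in 11 of 11 F pairs, with log2 fold changes of 0.55 ± 0.26 (SE) in M and -0.81 ± 0.14 (SE) in F. Ppargc1a, the coactivator of mitochondrial and glucose synthesis genes, measured 21.7, 22.3 and 19.2 CPM and 30.7, 30.4 and 36.5 CPM, with 0.63 in M and -0.74 in F. Orc3, a subunit of the replication origin complex, had 0.27 and -0.41. Together with Styk1 and Tshz1 these had the higher effect in M. The effect was lower in M for Adgrg1, an adhesion receptor (-0.29 in M and 1.15 in F), the epithelial factor Elf3 (-0.42 and 0.63), Coro1a (-0.99 and 0.09), Rela, a subunit of NF-kB (-0.24 and 0.32), and Eml3, a microtubule protein (-0.27 and 0.28). Each of these 10 genes had an adjusted p of 0.689 for the difference by edgeR. Over all autosomal genes tested, 13 were higher in 3 of 3 M pairs and lower in 11 of 11 F pairs, and 4 showed the reverse. They were among 408 that went 1 way in all 11 F pairs. Of all autosomal genes, 20.0% were higher and 20.2% lower in all 3 M pairs, so these opposite genes were few. How many of the 408 went the same way in M was not counted.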

How the data were processed

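RNA from 28 mouse tissue libraries was sequenced by the submitters. The submitters' processing notes list the aligners HISAT2 2.0.4 and Bowtie2 2.2.5, the counter RSEM 1.2.12, and DESeq2 1.4.5. Whether counting used the strand is not stated in the labels. The deposited table holds estimated counts per gene, of which 8.06% of values were not whole, and TPM values, both made by the authors. Of 18183 rows, 1 without a gene identifier was left out, and 26 symbols turned into dates were restored. Counts were rounded and genes placed on GRCm38 with RefSeq (18060 of 18182 matched).

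CPM values were scaled with TMM factors (0.862 to 1.08 in the M libraries). Fold changes came from edgeR 4.0.16 (R 4.3.3, limma 3.58.1) with robust quasi-likelihood, filterByExpr, 14 animal terms and a tumour term for each letter, over all 28 libraries, so that the 3 pairs share the spread of all 14. Benjamini-Hochberg adjustment ran over 14117 genes. Log2 differences of a pair used log2 CPM with a prior count of 2. DESeq2 1.42.0 was the alternative. Only the main edgeR fit, for tumour against peritumour in M, was run on simulated data.

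Pairs were taken from the codes in the titles. Deviations from the group means correlated between same-coded libraries with r of 0.302, 0.186 and 0.339, and between the others with r of -0.264 to 0.045. Such deviations from a mean of 3 libraries cancel out for each gene, so the other r values depend on the same-coded ones. Libraries of the same M group, compared in 6 pairings, differed by more than sampling noise. Genes named in the text were the 10 of smallest p in each direction among genes of at least 10 CPM that moved 1 way in all 3 pairs, up to 3 per list, a set of marker genes, and 5 per direction for the M minus F difference. Members and lists were chosen with earlier results of these data known. Reads of near-identical genes may be split.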

Additional observations from a re-analysis of the deposited data

Results flagged for a closer look

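Slc10a5 and Orc3 differed in direction between the M and F pairs, each higher in tumour in 3 of 3 M pairs and lower in 11 of 11 F pairs. The M effect minus the F effect was 1.36 on the log2 scale for Slc10a5 and 0.69 for Orc3. By edgeR's test of the difference itself the adjusted p was 0.689 for both, so neither difference passed. Over all autosomal genes tested, 13 had this pattern and 4 the reverse, among 408 that went 1 way in all 11 F pairs.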

How the results depend on the processing

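With edgeR, 0 autosomal genes passed for tumour against peritumour under each alternative run (other scaling, filters, samples, or no replicate block), except 4 without pair 1. DESeq2 called 96, and 1 gene for the M minus F difference. Leaving out 1 M pair at a time gave 0 to 4 genes that passed. The count at an unadjusted p under 0.05 ran from 526 to 1811 when 1 pair was left out (150 to 785 higher and 342 to 1026 lower), and from 398 to 1153 for the M minus F difference. Without the replicate block, that is ignoring the pairing, and with the style of sample code as a term, these counts were 560 (267 higher, 293 lower) and 402. With only 2 pairs the requirement is weaker by construction: 4046 to 4199 genes were higher in all pairs, and 1936 to 2642 higher and 2098 to 2701 lower without overlap.

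List medians that moved by more than the spread between pairs when 1 pair was left out ran from -0.25 to 0.31 for periportal hepatocyte, -3.97 to -1.71 for major urinary proteins, -1.01 to -0.20 for female-biased liver genes, -0.23 to -0.024 for growth hormone and IGF axis, -0.39 to -0.078 for lipid and cholesterol synthesis, -0.083 to -0.027 for glycolysis, 0.026 to 0.15 for Myc network factors, -0.75 to 0.0045 for fetal liver and tumour markers, -0.72 to -0.41 for T cell, -0.39 to -0.066 for B and plasma cell, -0.42 to -0.25 for immune checkpoint, -0.62 to -0.067 for cytokines and -0.069 to 0.082 for circadian clock. Other medians that moved were those of female-biased liver genes without a filter on low counts (-0.79), of growth hormone and IGF axis genes (-0.092) and cytokines (-0.20) without the replicate block, and of immune checkpoint genes with only the 6 M libraries (-0.23) and with a stricter filter (-0.22). Leaving out 1 pair, the log2 fold change ran from -0.59 (without pair 2) to 1.46 for Afp, from -0.10 (without pair 1) to 0.20 for Cd8a and from -0.027 (without pair 2) to 0.058 for Ldha, which was at -0.0006 in the 12 libraries of 1 code style. The cause of these shifts was not tested.

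With 3 pairs and a shared estimate of spread, a p that missed the threshold does not show that levels were equal. The T cell list summed to at most 31.5 CPM in an M library, and whether depth limits its test was not tested. The alternative without F pairs 2, 5 and 6 was added after the data were seen and gave 0 genes that passed.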
